A study of Mus musculus with 6 samples.

Results

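Heat shock chaperones of the cytosol and mitochondria were followed in mouse macrophages exposed to stearic acid, a saturated fatty acid. The set is a list of 42 named genes, and those with a mean of at least 1 TPM over all libraries were analysed. TPM is transcripts per 1e+06, a length-corrected share of all transcripts in a library. This left 40 genes, among 11551 genes of the 36333 in the tables that met the same minimum. Which of the 42 listed genes were kept was decided by the mean over all 6 libraries, with no use of the treatment. The list itself was chosen with earlier results of these data known, so no test was made over it. Just inside the minimum lay the small heat shock protein gene Cryab, at a mean of 1.47 TPM, and just outside it lay Hspb1, at 0.250 TPM.

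Bone marrow of C57BL/6 mice was cultured for 7 days with 10 ng/mL of the growth factor M-CSF to give macrophages, which were replated at 250000 cells per well. The next day 3 samples received 100 µM stearic acid and 3 received the ethanol vehicle at equal volume, all for 24 h, and polyadenylated RNA was sequenced. The labels number the replicates 1 to 3 in each group without saying whether they were separate animals or cultures; the p-values therefore reflect the spread of these samples alone, and that spread may be technical. All 8 macrophage markers checked, among them Lyz2, Csf1r and Adgre1, were above 1 TPM in both groups; their sum was 33271 to 34120 TPM with vehicle and 23357 to 29138 TPM with stearic acid, without overlap. Most of that sum was Lyz2, at 25775 to 27176 and 17694 to 22359 TPM. Adgre1, Itgam, Fcgr1 and C1qa were also below the vehicle range in every stearic acid library, Csf1r and Mertk were below it except in replicate 1, and Cd68 was above it, at 1972 to 2024 TPM against 2313 to 2544 TPM.

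Chaperones bind unfolded or partly folded proteins and help them reach or regain their native form. HSP70 proteins bind short exposed stretches of a client in an ATP-driven cycle, which HSP40 (J-domain) proteins start and which exchange factors such as HSP110 and BAG proteins reset. HSP90 finishes the folding of kinases and receptors with its co-chaperones, the CCT ring encloses actin and tubulin, and mitochondria carry their own HSP70 and a chaperonin ring. The transcription factor HSF1 binds inverted repeats of the short unit GAA, called heat shock elements, when unfolded protein builds up. In macrophages the clients of this machinery include cytoskeletal proteins.

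Heat shock elements were looked up in the promoters because they are the DNA feature that defines the response. RefSeq promoter windows (build GRCm38.p6, 250 bases before to 50 after an annotated start) were held for 34 of the 42 genes. The minimal elements searched were GAANNTTC and TTCNNGAA, each of which reads the same on both strands. The extended elements add a further unit at the same spacing (GAA, TTC and GAA, or TTC, GAA and TTC), are each other's reverse complement and contain the minimal ones. A minimal element was present in 17 of the 34 genes (50%), against 14.2% of 8952 tested genes with a window and 15.1% of all 32851 windows. An extended element was present in 5 of the 34 (14.7%), against 0.603% of those tested genes. The list was picked as heat shock genes, so an excess over all genes may follow from that choice and says nothing about stearic acid. These matches describe the letters in the window, and binding was not measured. The inducible HSP70 genes Hspa1a and Hspa1b, which had the largest rises of the set, are shown over the 150 bases before their start, 5′ to 3′ on the minus strand of chromosome 17, with the match to GAANNTTC in capitals.
Hspa1a, chr17:34972157-34972306: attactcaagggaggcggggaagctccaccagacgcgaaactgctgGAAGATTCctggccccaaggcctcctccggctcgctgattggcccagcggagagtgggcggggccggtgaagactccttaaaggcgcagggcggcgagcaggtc
Hspa1b, chr17:34959239-34959388: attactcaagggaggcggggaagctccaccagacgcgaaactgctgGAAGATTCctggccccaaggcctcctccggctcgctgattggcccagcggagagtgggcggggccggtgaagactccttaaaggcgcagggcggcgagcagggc
These stretches are identical at 149 of 150 positions, and the match begins 104 bases before the start in both.

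The 5 genes with an extended element are shown by the matched run alone, all in capitals, because they include genes that rose and genes that did not pass. Hspd1 and Hspe1, which encode the 2 parts of the mitochondrial chaperonin, lie head to head on chromosome 1 and share 1 run of 18 bases, read here on the strand of each gene. For Hspd1 the run begins 144 bases before the annotated start at 55087932. The window of its other annotated start, at 55088243, holds no match, and from that start the run lies inside the gene span. The run of Hsph1 lies just after its annotated starts.
Hspd1, chr1:55088059-55088076, minus strand: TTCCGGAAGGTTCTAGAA
Hspe1, chr1:55088059-55088076, plus strand: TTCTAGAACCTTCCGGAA
Hsph1, chr5:149636288-149636300, minus strand: TTCTGGAAAGTTC
Dnajb6, chr5:29735852-29735864, plus strand: GAATCTTCCGGAA
Chordc1, chr9:18292263-18292285, plus strand: GAACGTTCGGGAAAATTCCTGAA
Of these, Hspd1 and Hsph1 rose with stearic acid, while Hspe1, Dnajb6 and Chordc1 did not pass the test. Among the 14 genes that rose and had a window, 9 held a minimal element and 2 an extended one. Among the 20 that did not pass or lay below 1 TPM, 8 held a minimal element and 3 an extended one.

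With stearic acid, 16 of the 40 chaperone genes rose and none fell. By class, 4 of 6 rose in HSP70 with HSP110, 3 of 6 in HSP40 and 3 of 9 in HSP90 with co-chaperones. In BAG with Hspbp1 3 of 4 rose, in mitochondria 2 of 4 and in the CCT ring 1 of 8. No small heat shock protein or heat shock factor gene did. The test was limma on log2(TPM + 1) over all tested genes, with a Benjamini-Hochberg adjusted p below 0.05 taken as a call. Over all tested genes 24.7% were called, 12.8% as higher and 11.9% as lower, so the share of chaperones called higher (40%) is read against 12.8%. In the CCT ring the share called higher was 12.5%, close to that of all tested genes. At an unadjusted p below 0.05 the number lower was still 0. The log2 fold change was above 0 in 38 of the 40 genes, with a median of 0.23, against 45.7% above 0 and a median of -0.03 over all tested genes. Every stearic acid library lay above every vehicle library in 21 of the 40 genes (52.5%) and none lay wholly below, against 22.8% above, 21.7% below and 44.6% in either direction among all tested genes. Only Hspa1a and Hspa1b at least doubled their mean.

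The count of rises depended on single libraries. It was 7, 4 and 6 without vehicle replicate 1, 2 and 3, when 5.92%, 3.32% and 4.21% of all tested genes were called higher. It was 26, 10 and 7 without stearic acid replicate 1, 2 and 3, when 19.2%, 9.17% and 5.06% of all tested genes were, so the count moved with that of all genes. With no minimum on TPM it was 7, against 3.11%. Hspa1a, Hspa1b, Hsph1 and Bag3 passed in each of these 6 fits. The direction of the 16 rises was the same under RPKM and under median-of-ratios scaling.

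**Figure D1:**
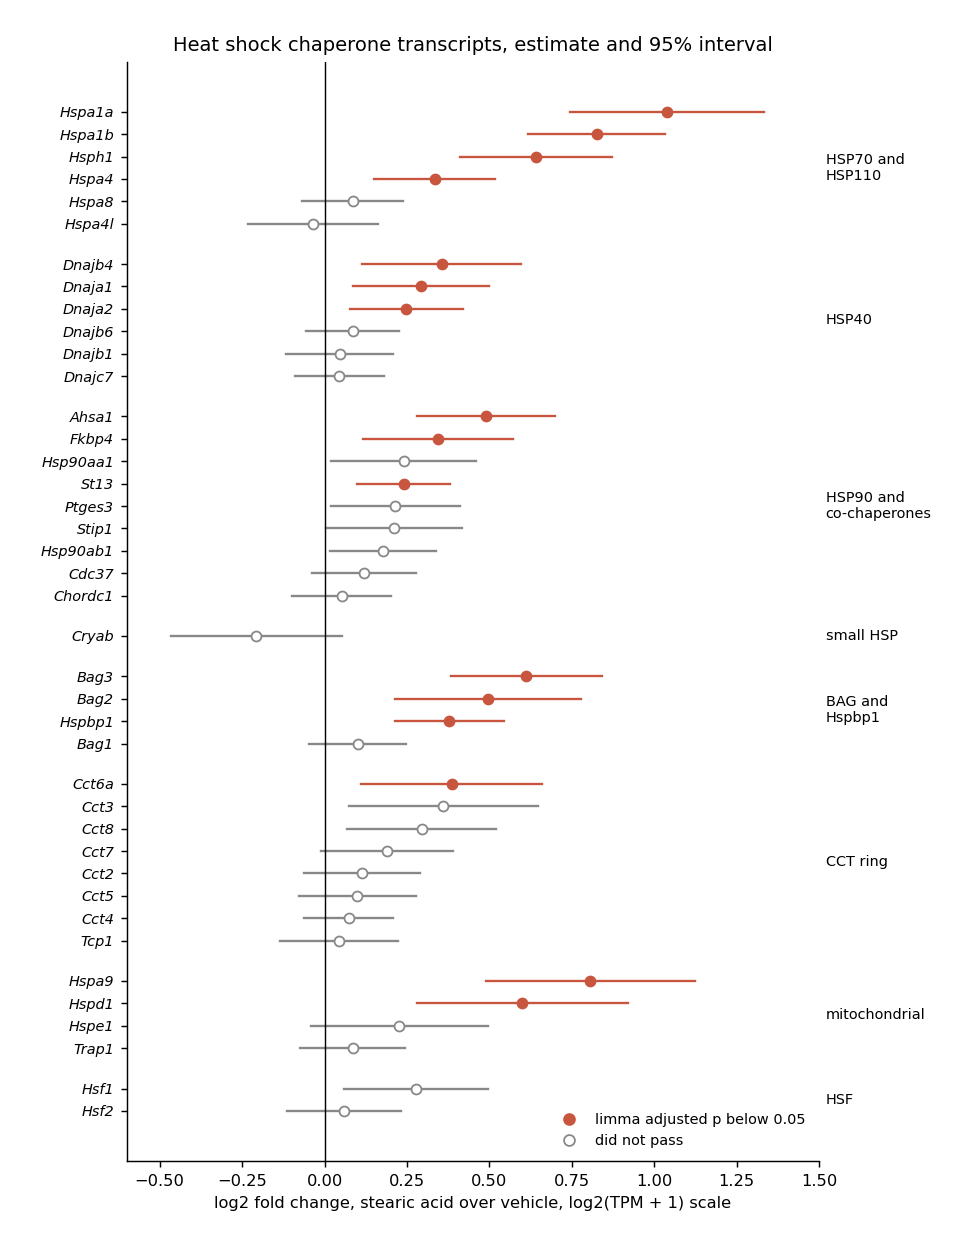
Log2 fold change of each of the 40 chaperone genes, stearic acid over vehicle on the log2(TPM + 1) scale (x axis), grouped by class (y axis), with the limma estimate as a point and its 95% interval as a line (n = 3 libraries per group). Filled points mark the 16 genes with a limma adjusted p below 0.05, which run from Dnaja2 and St13 near 0.24 to Hspa1a at 1.04; the 24 open points did not pass.

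The inducible HSP70 genes rose most in relative terms and remained among the scarcest transcripts of the set. Hspa1a (NCBI gene 193740, chromosome 17, 34969359 to 34972156, GRCm38) was at 1.21, 0.871 and 1.20 TPM in vehicle replicates 1 to 3 and at 3.84, 3.49 and 2.63 TPM in stearic acid replicates 1 to 3. The groups did not overlap, and the mean rose 3.04-fold, from 1.09 ± 0.193 to 3.32 ± 0.620 TPM (SD, n = 3; log2 1.04, SE 0.13, limma adjusted p = 0.0020). Hspa1b (gene 15511, chromosome 17, 34956429 to 34959238) was at 1.89, 1.68 and 1.71 TPM with vehicle and at 3.95, 4.16 and 3.58 TPM with stearic acid. It rose 2.21-fold without overlap (log2 0.83, SE 0.09, limma adjusted p = 0.0012). Their coding sequences are identical at 99.4% of positions, so reads may be shared between them and the separate values are uncertain. At the recovered depth 1 TPM stands for 19.1 to 27.7 reads or read pairs per kilobase.

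Hspa8, the constitutive HSP70 that carries most of the cytosolic pool, was the most abundant member and did not pass. Its levels were 2260, 2321 and 2277 TPM with vehicle and 2253, 2563 and 2470 TPM with stearic acid, so replicate 1 of stearic acid lay below all vehicle libraries and the others above. The 95% interval of its log2 fold change ran from -0.07 to 0.24 (estimate 0.09, limma adjusted p = 0.37). Hspa1a and Hspa1b together amounted to 1.25 ± 0.138 transcripts per 1000 of Hspa8 with vehicle and 2.98 ± 0.471 with stearic acid (n = 3), values given without a test.

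The HSP110 proteins, which act as nucleotide exchange factors for HSP70, did not move as 1 group. Hsph1 (gene 15505, chromosome 5, 149616843 to 149636498) was at 27.6, 26.9 and 29.1 TPM with vehicle and at 37.4, 49.2 and 46.2 TPM with stearic acid. All 3 treated libraries lay above the vehicle range, a rise of 1.59-fold (log2 0.64, SE 0.10, limma adjusted p = 0.0053). Hspa4 (gene 15525, chromosome 11, 53259814 to 53300479) was at 99.8, 102 and 104 TPM with vehicle and at 115, 140 and 133 TPM with stearic acid. It also rose without overlap, by 1.27-fold (log2 0.33, SE 0.08, limma adjusted p = 0.022), but the call was lost on leaving out stearic acid replicate 3 or any vehicle library (limma adjusted p up to 0.088). Their relative Hspa4l was at 12.3 to 14.1 TPM with vehicle and 11.8 to 13.8 TPM with stearic acid, with overlapping groups (log2 -0.03, interval -0.23 to 0.16).

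**Figure D2:**
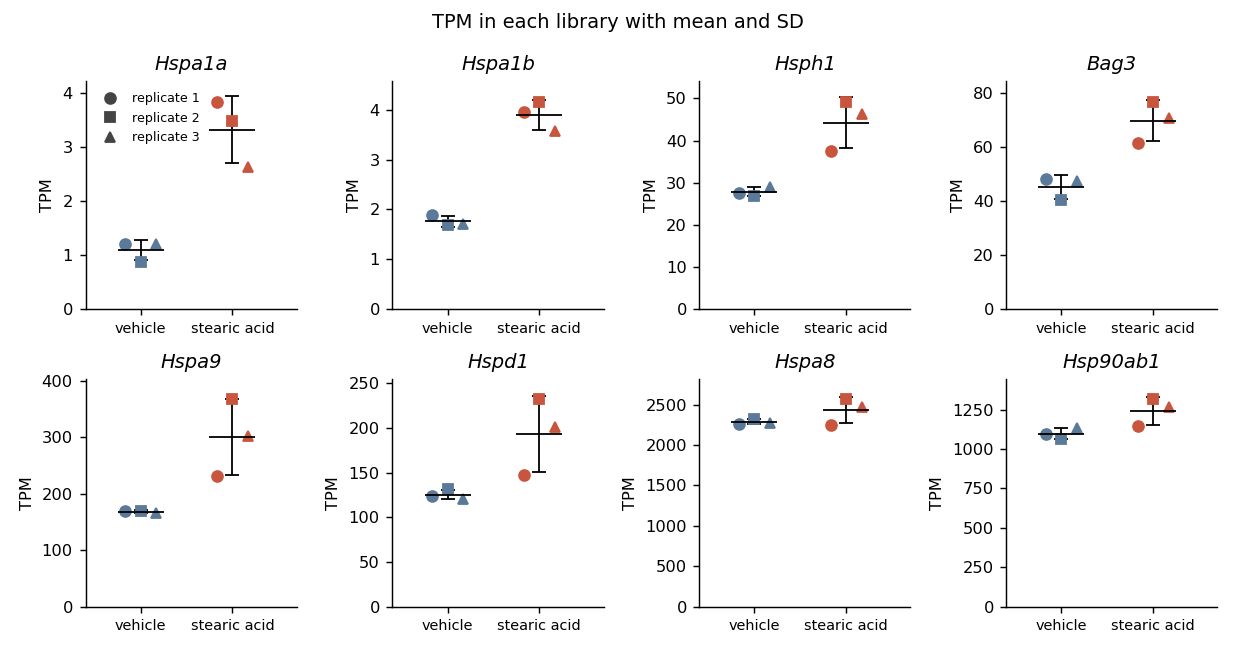
TPM (y axis, from 0) of 8 chaperone genes in the 3 vehicle and the 3 stearic acid libraries, with marker shapes for replicates 1 to 3 and a horizontal bar with whiskers for mean and SD. Hspa1a, Hspa1b, Hsph1, Bag3, Hspa9, Hspd1 and Hsp90ab1 show no overlap between groups, and Hspa8 overlaps; Hsp90ab1 and Hspa8 did not pass the test.

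Among the HSP40 genes, whose J-domain proteins deliver clients to HSP70, 3 of 6 rose by small amounts. Dnaja1 (gene 15502, chromosome 4, 40722468 to 40734965) was at 90.4, 100.4 and 90.7 TPM with vehicle and at 101, 124 and 121 TPM with stearic acid. Its lowest treated library exceeded its highest vehicle library by under 1 TPM (log2 0.29, SE 0.09, limma adjusted p = 0.045). Dnaja2 (chromosome 8, 85537633 to 85555361) was at 104, 108 and 112 TPM against 118, 138 and 131 TPM, without overlap (log2 0.25, SE 0.08, limma adjusted p = 0.043). Dnajb4 (chromosome 3, 152181580 to 152210432) was at 22.4, 24.8 and 24.2 TPM against 26.3, 35.4 and 31.2 TPM (log2 0.36, SE 0.11, limma adjusted p = 0.040). None of the 3 passed when any 1 library other than stearic acid replicate 1 was left out (limma adjusted p up to 0.16). Dnaja1 and Dnajb4 also did not pass under median-of-ratios scaling, Dnaja1 and Dnaja2 under a constant prior, and Dnaja1 under RPKM.

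Dnajb1, the HSP40 partner of inducible HSP70 and itself a heat shock gene, was at 36.3 to 38.0 TPM with vehicle and 35.9 to 40.5 TPM with stearic acid. The groups overlapped, and the interval of its log2 fold change ran from -0.12 to 0.21. Dnajb6, which keeps aggregation-prone proteins soluble, was at 61.6, 60.6 and 61.6 TPM against 67.0, 63.9 and 64.3 TPM; the groups did not overlap, but it did not pass (log2 0.08, limma adjusted p = 0.33). Dnajc7, a J-domain protein that also binds HSP90, did not pass (log2 0.05). Its gene overlaps Cnp and Nkiras2 over part of its span, and whether counting used strand is not given in the sources used here.

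The genes of HSP90 itself did not pass, and 3 of the 7 co-chaperones placed in its class rose, among them St13, which acts on HSP70. Hsp90ab1, the constitutive form, was at 1095, 1064 and 1135 TPM with vehicle and at 1144, 1314 and 1269 TPM with stearic acid. The groups did not overlap, yet the adjusted p was above the threshold (log2 0.18, SE 0.07, interval 0.02 to 0.34, limma adjusted p = 0.098). Hsp90aa1, the inducible form, was at 341, 378 and 345 TPM against 363, 470 and 429 TPM, and stearic acid replicate 1 lay within the vehicle range (log2 0.24, interval 0.02 to 0.46, limma adjusted p = 0.097). Both passed when stearic acid replicate 1 was left out, a fit in which 19.2% of all tested genes were called higher. Neither passed when any other single library was left out (limma adjusted p of 0.11 to 0.29).

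Ahsa1, which stimulates the ATPase of HSP90, had the largest rise among the co-chaperones. Its levels (gene 217737, chromosome 12, 87266415 to 87273998) were 257, 251 and 247 TPM with vehicle and 309, 401 and 358 TPM with stearic acid, a 1.41-fold rise without overlap (log2 0.49, SE 0.09, limma adjusted p = 0.0096). Leaving out vehicle replicate 2 or 3 ended the call (limma adjusted p up to 0.0565). Fkbp4, an immunophilin of steroid receptor complexes, was at 77.2, 74.4 and 74.5 TPM against 81.2, 107 and 101 TPM (log2 0.34, SE 0.10, limma adjusted p = 0.037). St13, also called HIP, which slows ADP release from HSP70, was at 197, 195 and 189 TPM against 218, 237 and 231 TPM (log2 0.24, SE 0.06, limma adjusted p = 0.027). In Fkbp4 the lowest treated value lay close to the vehicle range and in St13 clear of it, and neither passed when any 1 library other than stearic acid replicate 1 was left out (limma adjusted p up to 0.14); Fkbp4 also failed under median-of-ratios scaling.

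The other co-chaperones did not pass. Stip1, also called HOP, which hands clients from HSP70 to HSP90, was at 128 to 130 TPM with vehicle and at 129, 165 and 156 TPM with stearic acid (log2 0.21, limma adjusted p = 0.12). Ptges3, the p23 protein that stabilises ATP-bound HSP90, had a log2 fold change of 0.21 (limma adjusted p = 0.097). Cdc37, which recruits kinases, was at 0.12, and Chordc1 at 0.05. In all 9 genes of the HSP90 class stearic acid replicate 1 was the lowest and replicate 2 the highest treated library.

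BAG proteins release clients from HSP70 by promoting nucleotide exchange, and 3 of the 4 exchange factors in this class rose. Bag3, which links HSP70 to selective autophagy and is a known HSF1 target (gene 29810, chromosome 7, 128523583 to 128546981), was at 48.1, 40.2 and 47.4 TPM with vehicle and at 61.6, 76.7 and 70.8 TPM with stearic acid. The groups were well apart, and it rose 1.54-fold (log2 0.61, SE 0.10, limma adjusted p = 0.0061). Hspbp1, an exchange factor unrelated to BAG in sequence (gene 66245, chromosome 7, 4660515 to 4685188), was at 49.9, 47.4 and 50.8 TPM against 60.4, 69.2 and 64.1 TPM (log2 0.38, SE 0.07, limma adjusted p = 0.011). Leaving out vehicle replicate 2 ended the call (limma adjusted p = 0.053).

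Bag2, an inhibitor of the ubiquitin ligase CHIP, was far scarcer. Its values (chromosome 1, 33745484 to 33757750) were 5.11, 5.12 and 4.79 TPM with vehicle and 6.05, 9.03 and 7.57 TPM with stearic acid, without overlap (log2 0.50, SE 0.12, limma adjusted p = 0.024). The call was lost on leaving out stearic acid replicate 3 or any vehicle library (limma adjusted p up to 0.094). Bag1, the most abundant member of the class, was at 213, 218 and 211 TPM against 215, 239 and 235 TPM and did not pass (log2 0.10, interval -0.05 to 0.25).

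The mitochondrial chaperones divided into a large rise of Hspa9 and Hspd1 and no call for Hspe1 and Trap1. Hspa9, the mitochondrial HSP70 that pulls precursors through the inner membrane, was at 170, 170 and 165 TPM with vehicle and at 232, 367 and 303 TPM with stearic acid. Every treated library was well above the vehicle range, and the mean rose 1.78-fold, with vehicle at 168 ± 2.83 and stearic acid at 300.4 ± 67.4 TPM (SD, n = 3; log2 0.81, SE 0.14, limma adjusted p = 0.0072). Its call ended on leaving out vehicle replicate 2 (limma adjusted p = 0.0545).

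Hspd1, the HSP60 subunit of the chaperonin ring (gene 15510, chromosome 1, 55077833 to 55088243), was at 124, 131 and 121 TPM with vehicle and at 148, 232 and 201 TPM with stearic acid. It rose 1.54-fold without overlap (log2 0.60, SE 0.14, limma adjusted p = 0.020), and lost its call on leaving out stearic acid replicate 3 or any vehicle library (limma adjusted p up to 0.087). Hspe1, the HSP10 lid of the same chaperonin (gene 15528, chromosome 1, 55088148 to 55091317), was at 143, 167 and 135 TPM against 148, 199 and 176 TPM. Stearic acid replicate 1 lay inside the vehicle range, and Hspe1 did not pass (log2 0.23, SE 0.12, interval -0.04 to 0.49, limma adjusted p = 0.18). The annotated spans of this head-to-head pair overlap by 96 bases, a stretch whose reads could belong to either gene. Trap1, the mitochondrial HSP90, was at 66.4 to 69.2 TPM against 66.9 to 75.2 TPM and did not pass (log2 0.09, interval -0.07 to 0.25).

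The summed TPM of these 4 mitochondrial genes was 506, 535 and 489 with vehicle and 594, 873 and 755 with stearic acid, 1.45 times the vehicle mean. For comparison, the sum was 1.08 times the vehicle mean for HSP70 with HSP110, 1.14 for HSP40, 1.17 for HSP90 with co-chaperones, 1.18 for BAG with Hspbp1 and 1.14 for the CCT ring. It was 1.17 for the heat shock factors and 0.85 for the scarce small heat shock proteins (mean sums of 1.87 and 1.58 TPM, with overlapping groups). These sums are dominated by their most abundant members, Hspa8 for the HSP70 class, and are given without a test. All 42 listed genes made up 0.782% of all TPM with vehicle and 0.902% with stearic acid.

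**Figure D3:**
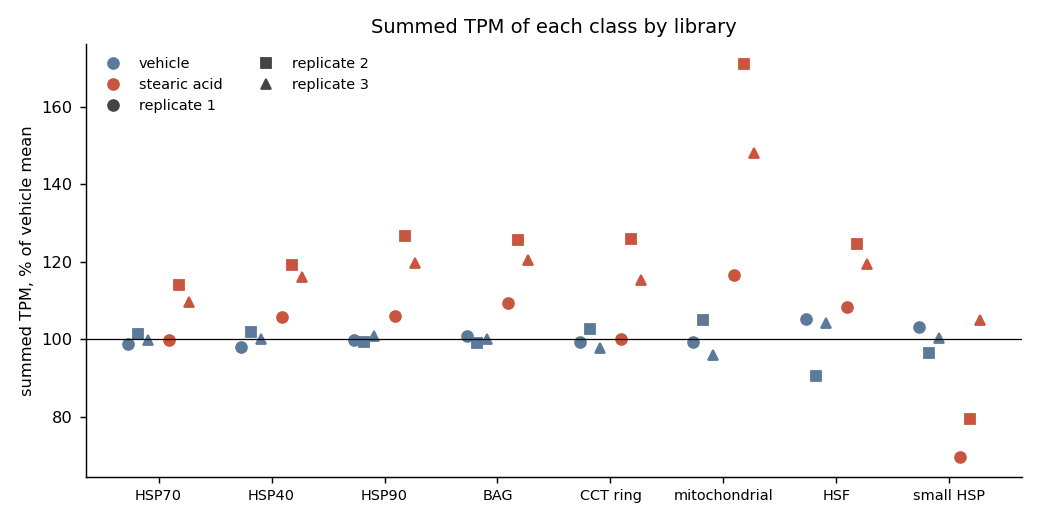
Summed TPM of each chaperone class in each library, as a percent of the mean of the 3 vehicle libraries (y axis, which does not start at 0), with color for the group and marker shape for replicates 1 to 3. The mitochondrial sums of the stearic acid libraries (594, 873 and 755 TPM) reach farthest above the line at 100, and stearic acid replicate 1 is the lowest of the 3 treated points in every class; HSF is the 2 heat shock factor genes and small HSP the 3 small heat shock protein genes.

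The CCT ring, whose 8 different subunits occur once in each of its 2 stacked rings, had 1 call, with all 8 log2 fold changes above 0. That is 12.5% of its genes, against 12.8% of all tested genes called higher. Cct6a was the only subunit that rose (gene 12466, chromosome 5, 129787356 to 129846443), from 148, 159 and 152 TPM with vehicle to 164, 239 and 205 TPM with stearic acid (log2 0.39, SE 0.12, limma adjusted p = 0.047). Its call was lost when any 1 library other than stearic acid replicate 1 was left out (limma adjusted p up to 0.14), and also under RPKM, median-of-ratios scaling and a constant prior. Cct3 was at 168, 176 and 161 TPM against 175, 261 and 221 TPM (log2 0.36, limma adjusted p = 0.067), and Cct8 at 169, 181 and 173 TPM against 183, 243 and 221 TPM (log2 0.29, limma adjusted p = 0.060). In these 3 subunits the values of stearic acid replicates 2 and 3 were well above vehicle, and that of replicate 1 was within or just above it.

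Cct5 and Cct2 were the most abundant subunits. Cct5 was at 268, 267 and 246 TPM with vehicle and at 254, 303 and 281 TPM with stearic acid (log2 0.10, limma adjusted p = 0.37), and Cct2 at 246, 255 and 250 TPM against 244, 293 and 277 TPM (log2 0.11, limma adjusted p = 0.30). The remaining subunits Tcp1, Cct4 and Cct7 had log2 fold changes of 0.04 to 0.19 and did not pass; the span of Tcp1 overlaps that of Mrpl18. Within every subunit stearic acid replicate 1 was the lowest and replicate 2 the highest treated library. Without stearic acid replicate 1, 5 of the 8 subunits passed, all as higher, against 19.2% of all tested genes called higher in that fit.

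**Figure D4:**
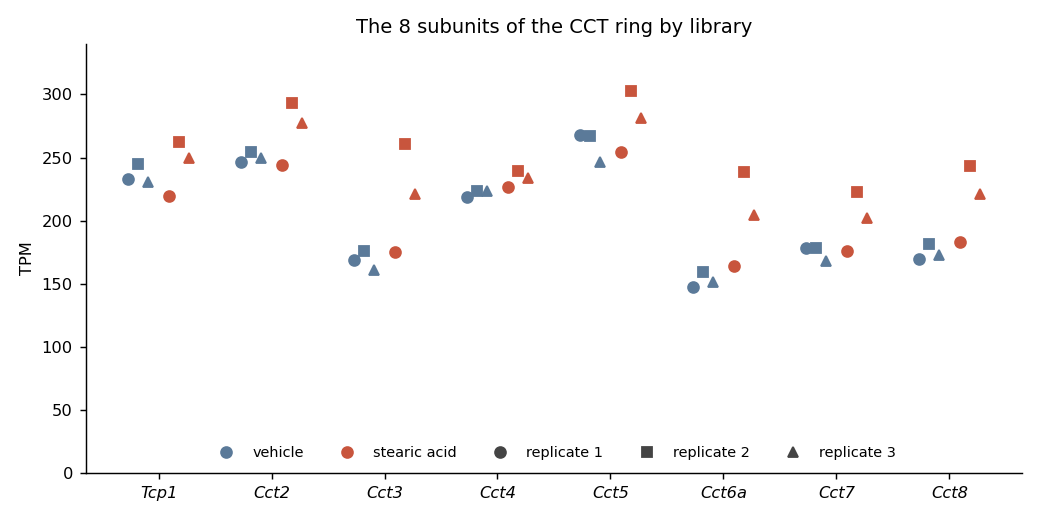
TPM (y axis, from 0) of the 8 CCT subunits in each of the 6 libraries, with color for the group and marker shape for replicates 1 to 3. Stearic acid replicate 1 lies with or near the vehicle libraries in every subunit, while replicate 2 is the highest point, as in Cct3 (261 TPM) and Cct6a (239 TPM).

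Small heat shock proteins hold unfolded proteins without ATP, and the 3 listed genes were scarce. Hspb6, a small heat shock protein gene among the related genes, was at 17.7, 15.7 and 19.2 TPM with vehicle and at 15.2, 12.7 and 14.6 TPM with stearic acid. Its groups did not overlap, and it did not pass (log2 -0.29, interval -0.52 to -0.07, limma adjusted p = 0.059). It was named after its values were seen. Cryab was at 1.67, 1.60 and 1.64 TPM with vehicle and at 1.15, 1.08 and 1.66 TPM with stearic acid, with overlapping groups (log2 -0.21, SE 0.11, limma adjusted p = 0.20). Hspb1, known as HSP25 in the mouse, was at 0.200, 0.208 and 0.232 TPM against 0.150, 0.402 and 0.307 TPM. Its groups overlapped, and the exact permutation test (two-sided, 20 possible assignments) gave p = 0.40, with 0.1 the smallest it can reach. Hspb8, the partner of Bag3, was listed at 0 in 5 libraries and at 0.0596 TPM in vehicle replicate 1.

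The heat shock factors themselves did not pass. Hsf1, the master regulator of the response (chromosome 15, 76477362 to 76501155), was at 32.7, 26.8 and 31.4 TPM with vehicle and at 33.5, 39.7 and 37.5 TPM with stearic acid. The groups were adjacent without overlap (log2 0.28, SE 0.10, limma adjusted p = 0.065; unadjusted p = 0.019), and Hsf1 passed under RPKM and median-of-ratios scaling. Hsf2 was at 9.74, 9.73 and 10.7 TPM against 10.3, 10.6 and 10.7 TPM (log2 0.06, interval -0.11 to 0.23). HSF1 is regulated mainly after translation, and its activity was not measured.

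Another 58 genes of the same machinery were listed for context, and 50 reached 1 TPM. Of these 9 rose (18.0%, against 12.8% of all tested genes) and 2 fell (11.9% of all tested genes were lower), with a median log2 fold change of 0.05. Dnajb2, an HSP40 that binds ubiquitin, rose from 4.85, 4.08 and 4.76 TPM with vehicle to 7.42, 9.34 and 7.52 TPM with stearic acid (log2 0.70, SE 0.11, limma adjusted p = 0.0046). Clpp, the mitochondrial matrix protease, rose from 24.4, 25.8 and 25.1 TPM with vehicle to 31.5, 41.4 and 37.1 TPM with treatment (log2 0.52, SE 0.10, limma adjusted p = 0.0099). Neither gene's groups overlapped.

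The fallers were Pfdn5, a subunit of prefoldin, which delivers actin and tubulin to the CCT ring, and Dnajc9, a histone chaperone with a J-domain. Pfdn5 went from 430, 464 and 409 TPM to 389, 320 and 350 TPM (log2 -0.30, limma adjusted p = 0.034), and Dnajc9 from 116, 118 and 119 TPM to 106, 92.3 and 101 TPM (log2 -0.25, limma adjusted p = 0.034). Pfdn2, of the same prefoldin complex, went the other way (log2 0.32, limma adjusted p = 0.024). Both falls were lost when any 1 library other than stearic acid replicate 1 was left out (limma adjusted p up to 0.11), and that of Pfdn5 also under RPKM and median-of-ratios scaling (limma adjusted p of 0.070 and 0.063).

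Mitochondrial chaperone partners and proteases gave 4 rises among 8 tested genes (50%, against 12.8% of all tested genes). Besides Clpp these were Clpb, a disaggregase (log2 0.32), Grpel1, the exchange factor of Hspa9 (log2 0.34), and Lonp1, the Lon protease (log2 0.30), with limma adjusted p of 0.025, 0.036 and 0.034. Dnaja3, the mitochondrial HSP40, had been placed with the other HSP40 genes and rose from 41.1, 38.0 and 38.8 TPM to 48.1, 60.5 and 55.7 TPM (log2 0.46, limma adjusted p = 0.011). Clpb, Grpel1, Lonp1, Dnaja3 and Pfdn2 were named after their values were seen. On leaving out vehicle replicate 1, 2 or 3, the count of related genes that changed was 3, 1 and 1 of 50, against 9.29%, 4.76% and 5.44% of all tested genes. On leaving out stearic acid replicate 1, 2 or 3 it was 22, 5 and 3, against 43.4%, 17.3% and 8.7%. With no minimum on TPM it was 3, against 4.75%.

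The treated libraries differed in the size of the rise, in the chaperones as in all genes called higher. Over the 16 genes that rose, the median log2 distance from the vehicle mean was 0.23, 0.65 and 0.46 in stearic acid replicates 1, 2 and 3, and over all genes called higher it was 0.30, 0.56 and 0.43. Replicate 1 was the lowest treated library in 35 of the 40 chaperone genes (87.5%) and replicate 2 the highest in 33 (82.5%). In the 16 chaperone genes that rose, replicate 1 was the lowest in 14 and replicate 2 the highest in 15. Among all genes called higher the shares were 79.1% and 88.5%, so among genes called higher this order was not particular to the chaperones. Among all tested genes, which include those called lower, they were 34.2% and 30.5%. Hspa1a and Hspa1b were exceptions among the 16: stearic acid replicate 1 had the highest Hspa1a value and the middle Hspa1b value. In 13 of the 40 chaperone genes stearic acid replicate 1 lay inside the vehicle range, and the share of all tested genes is not given here.

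Sequencing depth, estimated from the smallest steps between values, was 58.0 to 80.8 M reads or pairs (M, 1e+06), and each library had 11379 to 11639 genes at 1 TPM or more. Of 8 neutrophil markers only S100a8 had a mean of at least 1 TPM, and their sum was 2.45 to 4.71 TPM with vehicle and 6.32 to 7.22 TPM with stearic acid, with Retnlg at 0 and Ly6g, Mpo and Elane near 0. Of 6 dendritic cell markers only Itgax, which macrophages also express, had such a mean (sums of 21.8 to 27.2 and 30.1 to 32.3 TPM), with Flt3 and Zbtb46 near 0. None of the 7 lymphoid, 6 stromal and 5 mast cell or basophil markers had a mean of 1 TPM. The mast cell and basophil sum was 0.390 to 0.554 TPM with vehicle and 1.05 to 1.40 TPM with stearic acid, all of it Kit in the treated libraries, with Mcpt4, Mcpt8 and Fcer1a at 0. The lymphoid sums were 0.225 to 0.501 and 0.159 to 0.477 TPM, with Cd3e, Cd3d, Nkg7 and Ncr1 at 0. The stromal sums were 1.91 to 3.73 and 0.959 to 2.74 TPM. The part of these markers, and of the lower macrophage marker sum, in the chaperone values was not tested. In bulk RNA fewer cells of a type and less RNA per cell cannot be told apart.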

How the data were processed

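The 6 libraries were made from polyadenylated RNA with a stranded Illumina TruSeq kit, per the labels' protocols. Per the file headers, the authors deposited a TPM and an RPKM value for each gene of each library. TPM summed to 1e+06 in each library, and RPKM was a constant multiple of TPM within a library. The submitters' processing notes name DRAGEN and the builds GRCm38 and mm10; the sources used here give no version, annotation, counting rule or use of strand. Coordinates came from RefSeq GRCm38.p6, by gene number (97.3% of 36333 matched).

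The fit was limma 3.58.1 (R 4.3.3) with an intensity-dependent prior on log2(TPM + 1), restricted to genes averaging 1 TPM or more, with treatment as the only term and Benjamini-Hochberg adjustment over all tested genes at 0.05. Fold changes on this scale understate the change of low genes. Folds between means are ratios of TPM. The fit was tested on simulated data with independent noise for each gene. No shift of a whole library was simulated, so that test says nothing on differences between the treated libraries. Alternatives changed the pseudocount (0.1), the minimum (none, or 5 TPM), the unit, the scaling, the prior, library weights, the replicate block and each library in turn. Depth was recovered from the steps of RPKM in single-exon genes; 71.9% to 79.2% of values were whole reads within 0.02, so no counts were rebuilt. Elements were searched in RefSeq promoter windows, and the coding sequences compared were the longest reading frames of GENCODE M21 transcripts.

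The chaperone genes, the related genes and the markers were chosen with earlier results of these data known. The result of 1 marker list is not reported here. Values in every library were given for each gene of the set that passed and for the 2 most abundant of each class, and for the 2 related genes of smallest p in each direction; others were added to show a class.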

Additional observations from a re-analysis of the deposited data

How the results depend on the processing

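The 16 rises kept their direction in every fit run. As reported, 2856 of all genes were called (1482 higher, 1374 lower), 16 chaperones (all higher) and 11 related genes (9 higher, 2 lower). With no minimum on TPM the counts were 1027 (672 higher, 355 lower), 7 (all higher) and 3 (3 higher, 0 lower). The chaperones that lost their call there were Bag2, Cct6a, Dnaja1, Dnaja2, Dnajb4, Fkbp4, Hspa4, Hspd1 and St13. Library weights by limma's default method gave 9263 (4103 higher, 5160 lower), 38 (all higher) and 42 (28 higher, 14 lower). That estimate did not converge, and its weights ran from 0.157 to 82.5. A gene-by-gene estimate was therefore added after seeing the data: its weights ran from 0.302 to 8.16 and the counts were 7651 (3385 higher, 4266 lower), 35 (all higher) and 33 (24 higher, 9 lower). Under the default weights 3 related genes reversed: Dnajc8 (log2 0.069), Hsbp1 (log2 0.054) and Hsf4 (log2 -0.13). Leaving out 1 library gave 550 to 5010 of all genes (384 to 2223 higher, 142 to 2787 lower), 4 to 26 chaperones (all higher) and 1 to 22 related genes (1 to 16 higher, 0 to 6 lower). The highest counts came without stearic acid replicate 1, the lowest totals without vehicle replicate 2 (for the related genes also without vehicle replicate 3); the cause was not tested. The pseudocount of 0.1, the 5 TPM minimum, RPKM, median-of-ratios scaling and the constant prior called 16, 14, 15, 13 and 13 chaperones, all higher. In the same fits 12.8%, 13.6%, 17.2%, 15.0% and 12.3% of all tested genes were called higher. RPKM kept 14 and median-of-ratios scaling 12 of the 16, each adding Hsf1; at 5 TPM Hspa1a, Hspa1b and Cryab were not tested. The median log2 fold change of all genes was -0.03 as deposited, 0.01 under RPKM and -0.01 under median-of-ratios scaling. Class sums moved by less than 1 SD under both scalings. With the replicate block 3638 genes, 19 chaperones (Cct3, Cct8 and Hsp90aa1 added) and 15 related genes (11 higher, 4 lower) were called. Same-numbered libraries correlated at 0.07, 0.29 and 0.04 in their deviations from the group means. Vehicle replicates 1 and 2 correlated best with their own number and vehicle replicate 3 with stearic acid replicate 1 (0.28). Not every pair was over 0.1, so the numbers were not taken to pair the libraries, and the labels do not say whether they do. Depth limits Hspa1a, Hspa1b and the small heat shock proteins most.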

Other observations

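Ratios between chaperone genes within a library do not depend on how libraries are scaled, and they were computed after the values were seen, with no test. The Hspd1 to Hspe1 ratio was 0.870, 0.784 and 0.897 in vehicle replicates 1 to 3 and 1.00, 1.17 and 1.14 in stearic acid replicates 1 to 3, without overlap. Hspa9 to Hspd1 was 1.34 ± 0.0413 with vehicle and 1.55 ± 0.0432 with stearic acid (SD, n = 3). Bag3 to Bag1 was 0.226, 0.184 and 0.225 with vehicle and 0.286, 0.321 and 0.301 with stearic acid. Hsp90aa1 to Hsp90ab1 overlapped between groups, at 0.323 ± 0.0275 and 0.338 ± 0.0201.

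The span from the most to the least abundant of the 8 CCT subunits was narrower with stearic acid. In every vehicle library the least abundant was Cct6a, the subunit that rose, so the narrower span in part restates that rise. The most abundant subunit exceeded the least abundant 1.81, 1.67 and 1.65 times in vehicle replicates 1 to 3 and 1.55, 1.36 and 1.39 times in stearic acid replicates 1 to 3.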
